A study of Mus musculus with 18 samples.

Results

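Wnt10a, Serpinb1c, Mmd2, Nr4a1, Gucy2c, Tekt5, Tmprss7, Bhlha15, Rtn4rl2 and Tmc5 are 10 of the 54838 genes measured by RNA-seq in mouse livers and liver tumours with and without miR-181ab1. The 10 genes were chosen from their measured values in these same samples, as genes high in some wild-type (WT) tumours and near absent from other tumours and livers, so their high levels in those tumours are a description and were not tested. The samples were C57BL/6 livers taken at 36 weeks of age from WT mice and from miR-181ab1 global knockout (GKO) mice, in which the miR-181a-1 and miR-181b-1 cluster is missing from every cell. Tumours and the surrounding liver, called non-tumours, came from mice given 25 mg/kg of the liver carcinogen diethylnitrosamine (DEN) by intraperitoneal injection at postnatal day 12, and normal livers came from untreated mice. Each of the 6 groups (normal livers, non-tumours and tumours of either genotype) held 3 samples, 18 in all. The labels do not tie tumours to mice, so the spread between 3 tumours may be between mice or between nodules.

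The 10 genes belong to no common pathway. Wnt10a encodes a secreted Wnt ligand, which binds Frizzled and Lrp receptors on nearby cells and stabilises beta-catenin. Nr4a1 encodes an orphan nuclear receptor and is a classical immediate early gene, transcribed within minutes of a stimulus. Bhlha15 encodes Mist1, a basic helix-loop-helix transcription factor known from cells with a large secretory apparatus, such as pancreatic acinar cells and plasma cells. Gucy2c encodes the intestinal guanylyl cyclase that binds guanylin and uroguanylin, and Rtn4rl2 a relative of the Nogo receptor on neurons. Serpinb1c belongs to the clade B serpins, which are intracellular inhibitors of proteases, while Tmprss7 encodes a membrane-bound serine protease. Tekt5 encodes a tektin, a filament protein of cilia and sperm flagella, Tmc5 a transmembrane channel-like protein, and Mmd2 a member of the PAQR family of membrane proteins. None of these functions is a hallmark of the adult hepatocyte.

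Levels are given in TPM (transcripts scaled to a fixed total), which are scaled for gene length and sum to 1000000 in every sample, so that genes can be compared within a sample but a rise of some genes lowers the values of the rest. Whole reads could be recovered from the deposited values, and between 11925055 and 20751355 reads fell on genes in each sample. Intervals on ratios are 95% exact (Clopper-Pearson) intervals from these reads and cover counting error only. WT tumours 1 and 2 were the most alike of all pairs of tumours, with a Pearson correlation of 0.982. Their correlations with WT tumour 3 were 0.919 and 0.921 (log2(TPM + 1), genes averaging 0.5 TPM or more over the 18 samples). They differed by more than sampling noise, with a mean chi-square per gene of 24.4 over 13378 genes, but every other pair of samples differed by more. This cannot show whether they are independent tumours or parts of the same mouse, and they were kept as 2 samples. WT non-tumour 2 stood apart from WT non-tumours 1 and 3, with correlations of 0.929 and 0.933 against 0.970 between those 2. The targeted microRNA precursors could not check the genotypes, because Mir181b-1 was listed at 0 in every sample and Mir181a-1 held 1 read in 1 sample. The 9 hepatocyte markers found in the table summed to between 199740 and 237432 TPM in the 6 tumours. In the 12 livers without tumour they summed to between 67692 and 99663 TPM. These markers were thus abundant in all 18 samples and their sum was larger in tumours. Whether hepatocyte transcripts as a whole were a larger part of tumour RNA was not tested. In such bulk tissue, fewer cells that express a gene and less RNA per cell cannot be told apart.

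Promoter sequences of 6 of the 10 genes were found in the RefSeq table for GRCm38.p6, in 7 windows of 250 bases before a transcription start, and 4 are shown because they show how unlike these promoters were. They are written 5′ to 3′ on the strand of the gene, in lower case, with capitals where a searched motif matched on either strand. Nr4a1 (chr15:101266596-101266845, plus strand) is shown for its repeated motif, and Bhlha15 (chr5:144190036-144190285, plus strand) as a window without any motif searched. Serpinb1c (chr13:32898141-32898390, minus strand) is shown for its TATA box. Tekt5 (chr16:10395456-10395705, minus strand) is shown as another gene with fewer CpG than the median window. Tekt5 and Rtn4rl2 also lacked every motif searched.
Nr4a1: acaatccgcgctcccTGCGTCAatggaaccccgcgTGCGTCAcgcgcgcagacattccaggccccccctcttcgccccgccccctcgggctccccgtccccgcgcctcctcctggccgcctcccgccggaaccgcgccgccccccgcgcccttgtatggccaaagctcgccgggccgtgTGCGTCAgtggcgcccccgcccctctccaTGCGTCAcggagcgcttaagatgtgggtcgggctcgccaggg
Bhlha15: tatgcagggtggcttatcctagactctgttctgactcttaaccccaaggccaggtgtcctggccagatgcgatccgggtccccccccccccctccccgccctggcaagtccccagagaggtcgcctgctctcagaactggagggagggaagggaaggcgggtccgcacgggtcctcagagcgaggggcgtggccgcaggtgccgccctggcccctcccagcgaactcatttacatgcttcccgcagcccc
Serpinb1c: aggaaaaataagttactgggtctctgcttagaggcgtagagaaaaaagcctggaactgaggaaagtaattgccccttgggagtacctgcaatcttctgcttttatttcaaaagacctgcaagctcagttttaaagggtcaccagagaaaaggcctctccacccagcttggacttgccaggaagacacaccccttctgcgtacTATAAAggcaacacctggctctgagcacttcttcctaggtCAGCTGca
Tekt5: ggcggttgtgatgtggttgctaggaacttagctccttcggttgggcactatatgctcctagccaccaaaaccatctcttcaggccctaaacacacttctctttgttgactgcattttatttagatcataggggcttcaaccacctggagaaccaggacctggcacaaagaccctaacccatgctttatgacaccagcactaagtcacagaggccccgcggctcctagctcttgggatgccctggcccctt
In Nr4a1, the capitals mark 4 copies of TGCGTCA, the AP-1-like element known from this promoter, beginning 235, 215, 71 and 42 bases before the start. That motif was added after the sequence had been read, and 1.75% of the 32851 promoter windows of this length held at least 1 copy. In Serpinb1c, the capitals mark TATAAA 48 bases before the start, a motif in 12.4% of all windows, and CAGCTG, an E-box bound by Mist1 and other helix-loop-helix factors, 8 bases before it, in 13.0% of all windows. The second RefSeq start of Serpinb1c also had CAGCTG, 19 bases upstream. No match was found in any of the 7 windows to CTTTGA (TCF/LEF, 13.8% of all windows), TGACGTCA (CRE, 1.55%), TGANTCA (AP-1, 6.75%), AAAGGTCA (bound by Nr4a1, 1.34%), CATATG (an E-box, 3.46%), TGACNNNGC (the antioxidant response element, 10.2%) or the endoplasmic reticulum stress element (0.113%). CCAAT was found in Mmd2 only, against 33.8% of all windows. The CpG content of the windows ran from 34 in Nr4a1 and 29 in Rtn4rl2, through 15 in Mmd2, 13 in Bhlha15 and 4 in Tekt5, to 2 and 0 at the starts of Serpinb1c, beside a median of 6 over all windows. Thus CpG-rich and CpG-poor promoters stood side by side among genes with the same sample pattern.

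All 10 genes had their highest and second highest values in the same 2 samples, WT tumours 1 and 2. In WT tumour 1 the 10 genes summed to 467 TPM with a median of 32.7, and in WT tumour 2 to 406 TPM with a median of 30.4. WT tumour 3 was unlike them: its 10 values summed to 4.56 TPM, 8 were below 1 TPM and 3 were 0. The sums were 15.5, 6.70 and 6.05 TPM in GKO tumours 1, 2 and 3, and between 2.64 and 9.42 TPM in the 12 livers without tumour. The only value of 5 TPM or more outside WT tumours 1 and 2 was that of Tekt5 in WT non-tumour 2.

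**Figure D1:**
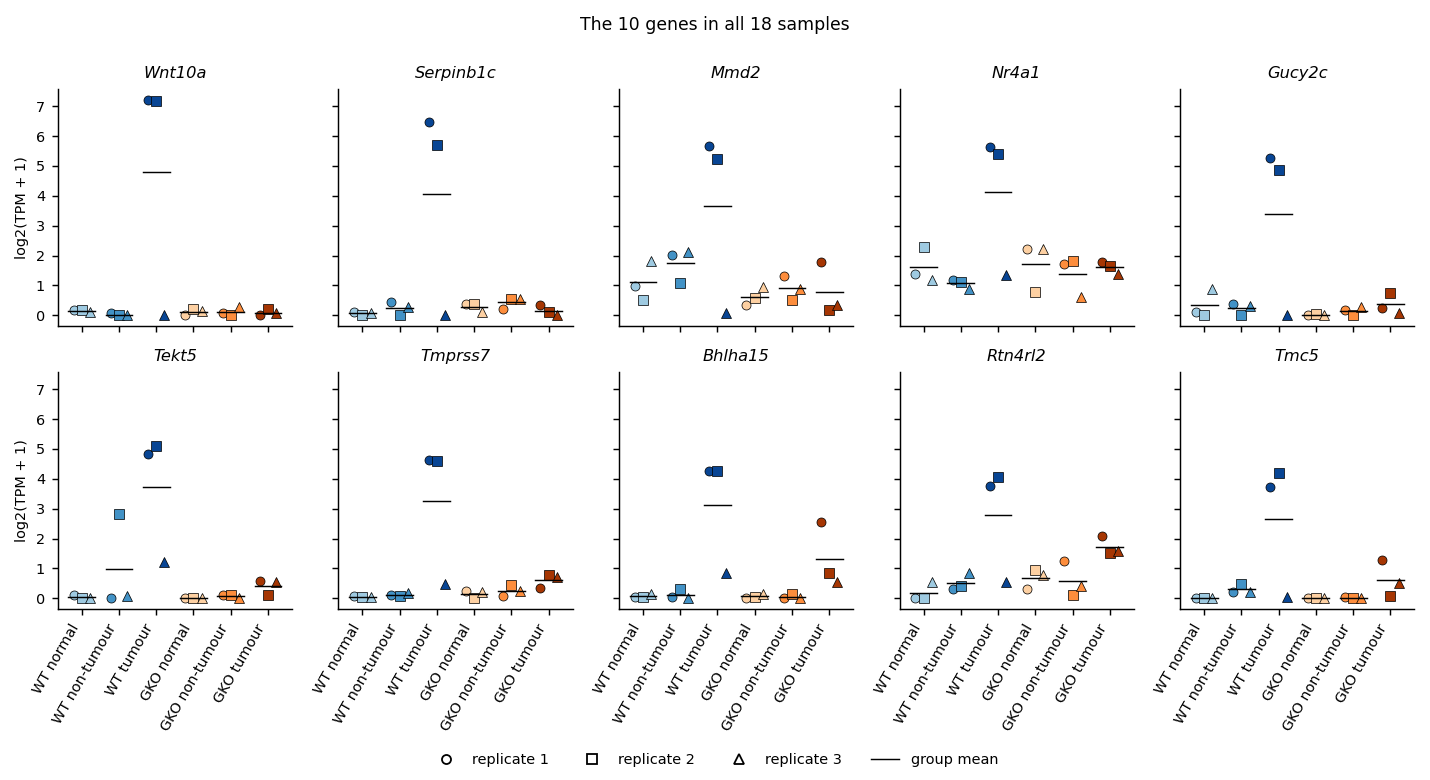
Level of each of the 10 genes in log2(TPM + 1) on the vertical axis, in the 6 groups of 3 samples, with one point per sample, shaped by replicate number, and a line at the group mean. WT tumours 1 and 2 lie far above the other 16 samples in every panel, and WT tumour 3 lies with the GKO tumours and the livers.

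Wnt10a was the highest of the 10. Its levels were 148, 142 and 0 TPM in WT tumours 1, 2 and 3, for a group mean of 96.8 ± 83.9 TPM (SD, n = 3) that no tumour was close to. In the GKO tumours they were 0, 0.149 and 0.0494 TPM. Reads of this ligand were scarce in every other sample, with 15 of the 16 at 3 reads or fewer and 6 at 0. Non-tumours held 0.0493, 0 and 0 TPM in WT and 0.0518, 0 and 0.201 TPM in GKO mice. Normal livers held 0.119, 0.137 and 0.0776 TPM in WT and 0, 0.151 and 0.0952 TPM in GKO mice. The lower of the high tumours was 708-fold (interval 276 to 2602) above the next sample, GKO non-tumour 3, where 4 reads were counted against 2887. WT tumours 1 and 2 had the same level of Wnt10a within counting error, with a ratio of 1.04 (interval 0.987 to 1.09).

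The 18 other Wnt ligands did not share this pattern. Together they summed to 4.27 and 4.43 TPM in WT tumours 1 and 2, to 3.07 TPM in WT tumour 3, and to between 3.68 and 16.8 TPM in the other 15 samples. In WT tumours 1 and 2 Wnt10a therefore exceeded all of its relatives added up. Wnt6, the neighbour of Wnt10a 6194 bases upstream on the same strand of chromosome 1, stayed at 0.386, 0.444 and 0 TPM in WT tumours 1, 2 and 3 and reached at most 0.396 TPM elsewhere. Cdk5r2, the nearest protein-coding gene on the other side, was listed at 0 in all 18 samples.

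Serpinb1c came next, with 88.5, 50.8 and 0 TPM in WT tumours 1, 2 and 3, and 0.265, 0.0749 and 0 TPM in the GKO tumours. Non-tumours held 0.373, 0 and 0.220 TPM in WT and 0.156, 0.469 and 0.456 TPM in GKO mice. Normal livers held 0.0902, 0 and 0.0587 TPM in WT and 0.30, 0.304 and 0.0719 TPM in GKO mice. WT tumour 2 exceeded the highest of these, GKO non-tumour 2, by 108-fold (interval 49.6 to 296). Of the 10 genes it differed most between the high tumours, with 1.74 times (interval 1.58 to 1.92) as much in WT tumour 1 as in WT tumour 2. Serpinb1c has close copies next to it on chromosome 13, and how reads shared between copies were assigned is not given in the sources used here. Serpinb1a, 30249 bases away, held 3.52, 2.33 and 0.344 TPM in the WT tumours and up to 12.2 TPM in the other samples, and Serpinb6b, 66998 bases away on the other side, held 14.0, 13.3 and 2.00 TPM.

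Mmd2 and Nr4a1 had more than 3 reads in every liver without tumour. Mmd2 stood at 49.8, 36.5 and 0.0436 TPM in WT tumours 1, 2 and 3, where the last is the lowest of all 18 values, and at 2.42, 0.141 and 0.282 TPM in the GKO tumours. Non-tumours held 3.05, 1.13 and 3.34 TPM of Mmd2 in WT and 1.5, 0.418 and 0.860 TPM in GKO mice. Normal livers held 0.993, 0.433 and 2.56 TPM in WT and 0.259, 0.502 and 0.95 TPM in GKO mice. Its lower high tumour was 10.9-fold (interval 9.22 to 13.1) above the next sample, WT non-tumour 3. Its relative Mmd, a gene of ordinary liver, went the other way in these samples. Mmd held 12.9 and 14.7 TPM in WT tumours 1 and 2 against 58.7 TPM in WT tumour 3 and between 28.5 and 94.0 TPM in the other 15. The flanking genes Radil and Wipi2 showed no such pattern, with at most 0.0775 TPM of Radil in any sample and between 9.16 and 16.6 TPM of Wipi2.

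Nr4a1 stood at 48.9, 41.6 and 1.55 TPM in WT tumours 1, 2 and 3 and at 2.41, 2.13 and 1.63 TPM in the GKO tumours. Non-tumours held 1.28, 1.19 and 0.851 TPM in WT and 2.26, 2.51 and 0.530 TPM in GKO mice. Normal livers held 1.64, 3.85 and 1.26 TPM in WT and 3.63, 0.707 and 3.62 TPM in GKO mice. Its lower high tumour was 10.8-fold (interval 8.95 to 13.2) above the next sample, WT normal liver 2. The 2 other receptors of the family were not raised with it, with 0.775 and 0.900 TPM of Nr4a2 in WT tumours 1 and 2 against up to 2.38 TPM elsewhere, and at most 0.163 TPM of Nr4a3 in any sample. Neither neighbour of Nr4a1 on chromosome 15 shared the pattern, Grasp ranging from 1.09 to 3.48 TPM and Atg101 from 34.0 to 79.0 TPM over the 18 samples.

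Gucy2c held 37.7, 27.9 and 0 TPM in WT tumours 1, 2 and 3 and 0.191, 0.679 and 0.0615 TPM in the GKO tumours. Non-tumours held 0.307, 0 and 0.241 TPM in WT and 0.129, 0 and 0.219 TPM in GKO mice. Normal livers held 0.0744, 0 and 0.847 TPM in WT and 0, 0.0313 and 0 TPM in GKO mice. The lower high tumour exceeded WT normal liver 3, the next sample, by 32.9-fold (interval 23.5 to 47.5). Its peptide ligands were barely detected: Guca2a, encoding guanylin, had 1.02 TPM in either of WT tumours 1 and 2 and 1.64 TPM in GKO tumour 1, and was listed at 0 in the other 15 samples. Cftr and Slc9a3, the intestinal channel and exchanger regulated through this receptor, were at or near 0 in WT tumours 1 and 2, with at most 0.0314 TPM of Cftr. Plbd1, 35356 bases away on chromosome 6, was lower there (8.82 and 10.9 TPM) than in any of the 12 livers without tumour (15.5 to 42.7 TPM), and Hist4h4 was below 0.5 TPM everywhere.

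Tekt5 was the only one of the 10 to reach 5 TPM in a liver without tumour. It held 27.6, 32.9 and 1.32 TPM in WT tumours 1, 2 and 3, and 0.479, 0.0677 and 0.472 TPM in the GKO tumours. In WT non-tumours it held 0, 6.10 and 0.0661 TPM, so that WT non-tumour 2, the sample that stood apart, was far above the others of its group. GKO non-tumours held 0.0707, 0.0706 and 0 TPM, WT normal livers 0.0815, 0 and 0 TPM, and GKO normal livers 0 TPM in all 3. The lower high tumour was 4.53-fold (interval 3.6 to 5.76) above WT non-tumour 2. The other tektins were not raised: Tekt1, Tekt3 and Tekt4 had no read in WT tumours 1 and 2, and Tekt2 had 0 and 0.513 TPM. The neighbours Emp2 (1.33 and 1.04 TPM in WT tumours 1 and 2, 1.80 to 8.84 TPM elsewhere) and Nubp1 (7.02 and 8.20 TPM, 1.84 to 10.8 TPM elsewhere) did not follow Tekt5.

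Tmprss7 held 23.8, 23.3 and 0.399 TPM in WT tumours 1, 2 and 3 and 0.267, 0.733 and 0.644 TPM in the GKO tumours. Non-tumours held 0.0858, 0.0432 and 0.126 TPM in WT and 0.0450, 0.360 and 0.175 TPM in GKO mice. Normal livers held 0.0519, 0.0397 and 0.0338 TPM in WT and 0.172, 0 and 0.166 TPM in GKO mice. Its lower high tumour was 31.9-fold (interval 19.7 to 55.1) above GKO tumour 2, the next sample. Tmprss7 was the clearest case in which a neighbour had the same pattern: BC016579, a gene 2247 bases downstream on the same strand of chromosome 16, held 5.87, 5.74 and 0.159 TPM in the WT tumours, 0.505, 1.60 and 1.31 TPM in the GKO tumours and at most 0.165 TPM in the 12 livers without tumour. Tagln3, on the other side, held 0 and 0.491 TPM in WT tumours 1 and 2. Of the 15 related membrane-bound serine proteases, 8 had no read in WT tumours 1 and 2, and the most abundant, Hpn (encoding hepsin) and Tmprss6 (a regulator of hepcidin), held 371 and 380 TPM and 274 and 255 TPM in WT tumours 1 and 2, and stayed within the ranges of the other 16 samples (177 to 509 and 145 to 424 TPM).

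Bhlha15 held 18.1, 17.98 and 0.778 TPM in WT tumours 1, 2 and 3 and 4.83, 0.805 and 0.453 TPM in the GKO tumours. Non-tumours held 0.0348, 0.245 and 0 TPM in WT and 0, 0.110 and 0 TPM in GKO mice. Normal livers held 0.0422, 0.0322 and 0.110 TPM in WT and 0, 0.0355 and 0.101 TPM in GKO mice. All 6 tumours were thus above all 12 livers without tumour, and GKO tumour 1 was intermediate. The lower high tumour was 3.72-fold (interval 3.10 to 4.48) above GKO tumour 1. Bhlha15 lies between Lmtk2 (4.28 and 3.21 TPM in WT tumours 1 and 2, 1.78 to 3.91 TPM elsewhere) and Tecpr1 (4.43 and 4.27 TPM, 1.64 to 4.36 TPM elsewhere), whose annotated end is 1 base from that of Bhlha15 on the opposite strand of chromosome 5. Whether the counting used the strand is not given in the sources used here.

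Rtn4rl2 held 12.7, 15.7 and 0.451 TPM in WT tumours 1, 2 and 3, and 3.23, 1.87 and 2.02 TPM in the GKO tumours, the highest values of the other 16 samples. Non-tumours held 0.242, 0.325 and 0.793 TPM in WT and 1.36, 0.0847 and 0.329 TPM in GKO mice. Normal livers held 0, 0 and 0.445 TPM in WT and 0.244, 0.906 and 0.702 TPM in GKO mice. The lower high tumour was 3.92-fold (interval 2.80 to 5.59) above GKO tumour 1. Rtn4, which encodes the ligand Nogo, held 10.5 and 10.7 TPM in WT tumours 1 and 2 against 73.8 TPM in WT tumour 3 and 41.9, 41.7 and 50.5 TPM in the GKO tumours, and Rtn4rl1, the nearest relative of Rtn4rl2, ranged from 5.68 to 17.8 TPM over all samples without setting these tumours apart. Slc43a1, 8330 bases away on chromosome 2, held 8.38, 6.99 and 4.64 TPM in the WT tumours and up to 3.77 TPM in the other 15 samples, while Slc43a3 on the other side held 6.04 and 5.59 TPM in WT tumours 1 and 2 and 2.80 to 11.8 TPM elsewhere.

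Tmc5 held 12.2, 17.2 and 0.0253 TPM in WT tumours 1, 2 and 3, and 1.40, 0.0547 and 0.436 TPM in the GKO tumours. Non-tumours held 0.163, 0.384 and 0.160 TPM in WT and 0.0286, 0 and 0 TPM in GKO mice, and it was listed at 0 in all 6 normal livers. The lower high tumour was 8.67-fold (interval 6.59 to 11.6) above GKO tumour 1. Tmc5 was more abundant in WT tumour 2 than in WT tumour 1, with a ratio of tumour 1 to tumour 2 of 0.706 (interval 0.625 to 0.798), the reverse of Serpinb1c. Tmc7, 12561 bases away on chromosome 7 and itself a member of the family, held 1.30 and 0.972 TPM in WT tumours 1 and 2 and 0.401 to 1.35 TPM elsewhere, and Gde1 on the other side held 28.9 and 16.1 TPM there and 18.3 to 96.2 TPM elsewhere. The most abundant relatives, Tmc6 and Tmc8, held 15.5 and 18.1 TPM and 4.35 and 5.38 TPM in WT tumours 1 and 2, beside 5.54 to 15.2 TPM and 0.650 to 4.54 TPM elsewhere.

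**Figure D2:**
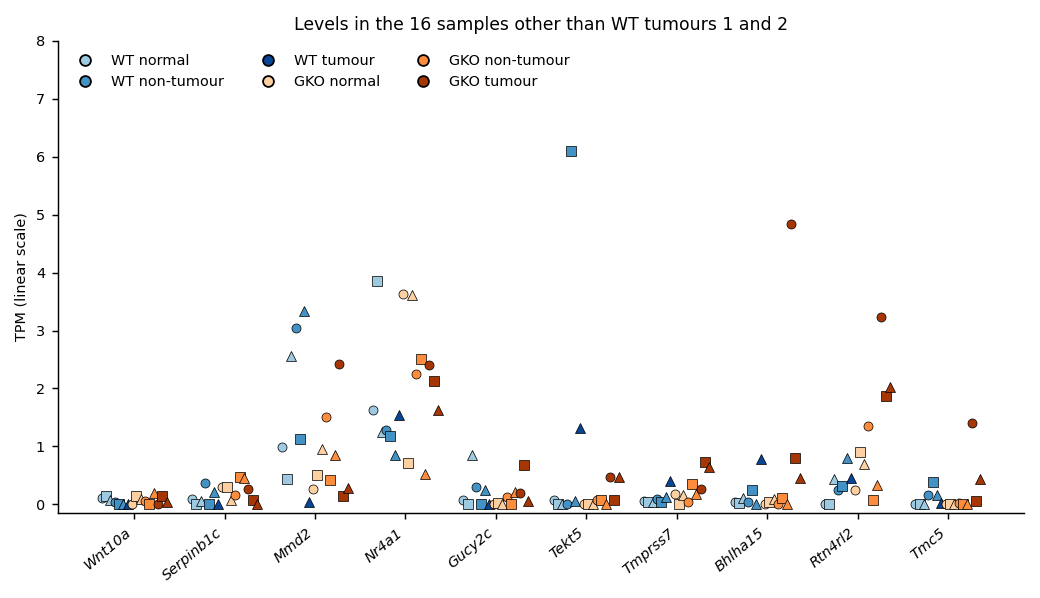
Level of each of the 10 genes in TPM, on a linear vertical axis, in the 16 samples other than WT tumours 1 and 2, with one point per sample, coloured by group and shaped by replicate number. Tekt5 in WT non-tumour 2 (6.10 TPM) and Bhlha15 in GKO tumour 1 (4.83 TPM) are the highest points, and Wnt10a and Serpinb1c stay below 0.5 TPM.

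The distance between the high tumours and the rest differed among the 10 genes. Ordered by the fold between the lower high tumour and the next sample, Wnt10a (708) and Serpinb1c (108) led, Gucy2c (32.9) and Tmprss7 (31.9) followed, and Tekt5 (4.53), Rtn4rl2 (3.92) and Bhlha15 (3.72) came last, the intervals of these 3 overlapping. Between WT tumours 1 and 2, the intervals of the ratio excluded 1 for 6 genes, with Serpinb1c, Mmd2, Gucy2c and Nr4a1 higher in tumour 1 and Tekt5 and Tmc5 higher in tumour 2, and included 1 for Wnt10a, Tmprss7, Bhlha15 and Rtn4rl2. These tumours also differed by more than counting error over all genes. The share of all genes with such an interval was not taken, so this count does not set the 10 apart.

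Outside these tumours, the 10 genes did not move together detectably. Because the samples fell into a cluster of 2 and a cluster of 16, no correlation among the 10 genes was taken over all 18. Over the 16 other samples, Pearson r of log2(TPM + 1) for the 45 pairs of genes ran from -0.51 to 0.84 with a median of 0.00359, 23 of the 45 were positive, and no pair passed an adjusted p of 0.05 by Pearson r or Spearman rho (permutation tests with 100000 resamples, Benjamini-Hochberg over the 45 pairs), while 4 had an unadjusted p under 0.05 by Pearson r. The largest was that of Bhlha15 with Tmc5 (r = 0.84, permutation p = 0.0101, adjusted p = 0.151, rho = 0.43, permutation p = 0.0999). Without the 2 samples farthest from the median of Bhlha15 it was 0.39, so it rested on them. Leaving out 2 samples in this way moved r either way. Without the 2 samples farthest from the median of Tekt5, r of Tekt5 with Tmc5 rose from 0.38 to 0.87. With Bhlha15 it rose from 0.24 to 0.76, and with Rtn4rl2 from 0.02 to 0.73. Over the 16 samples rho of Tekt5 was 0.61 with Tmc5 and 0.59 with Bhlha15 (permutation p = 0.0156 and 0.0196, adjusted p = 0.355 for both). In the 12 livers without tumour the median r of the 45 pairs was -0.098, and again no pair passed, with 4 at an unadjusted p under 0.05. Most of these values rest on a few reads, which limits what such correlations can show. Low levels in these samples were also part of the choice of the 10 genes, so the lack of a call is not independent of that choice. The permutations shuffled samples across groups, so the p-values do not test covariation within a group.

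Genes were then counted by a strict on and off rule. Genes high in WT tumours 1 and 2 that reach 1 TPM in another group, as 6 of the 10 do, are outside this count. It therefore does not show how many genes rose in these 2 tumours. With 5 TPM or more in at least 1 WT tumour and under 1 TPM in each of the 15 samples of the other groups, 31 genes were counted, beside 17 for the GKO tumours, 13 for WT non-tumours, 7 for GKO non-tumours, 5 for WT normal livers and 16 for GKO normal livers. Of the 31, 12 were at 5 TPM or more in WT tumours 1 and 2 alone, 8 in tumour 1 alone, 4 in tumour 2 alone and 5 in tumour 3 alone. Wnt10a, Serpinb1c, Gucy2c and Tmprss7 were among the 12, and the other 6 genes of interest missed the limit of 1 TPM, from Tmc5 at 1.40 TPM in GKO tumour 1 to Tekt5 at 6.10 TPM in WT non-tumour 2. With a threshold of 10 TPM the count for WT tumours was 12, beside 4 for the GKO tumours, 2 each for WT and GKO non-tumours and 3 each for WT and GKO normal livers.

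**Figure D3:**
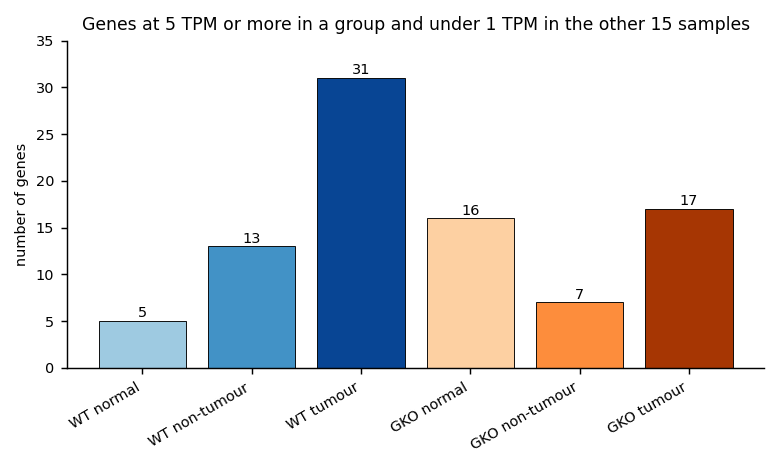
Number of genes, on a vertical axis from 0, with 5 TPM or more in at least 1 of the 3 samples of a group and under 1 TPM in each of the 15 samples of the other groups, with 1 bar per group. WT tumours had the highest bar, 31 genes, and the other groups had between 5 and 17.

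The genes most like each of the 10, by Pearson r of log2(TPM + 1) over the 18 samples among genes that reached 5 TPM, were partly shared. This r rests mostly on WT tumours 1 and 2. For Wnt10a, Serpinb1c, Tmprss7 and Tmc5 the leading gene was Gm4714, a processed pseudogene with 11.3 and 10.9 TPM in WT tumours 1 and 2 and no read in the other 16 samples (r from 0.966 to 0.999), and the noncoding Gm4668 (8.98 and 9.68 TPM) was among the first 3 for the same 4 genes and for Gucy2c. Gm4714 was also among the first 3 for Gucy2c, Mmd2 and Nr4a1 (r = 0.986, 0.916 and 0.939). E330017L17Rik, another noncoding gene, was among the first 3 for Wnt10a, Nr4a1 and Tmprss7, with 8.98 and 9.50 TPM in WT tumours 1 and 2. Lipo5, a pseudogene of the lipase family, was among the first 3 for Serpinb1c with 12.1 and 5.53 TPM, and 4930461G14Rik for Tmc5 with 3.59 and 7.80 TPM, so that each of them followed the difference between the high tumours seen in its partner. Gucy2c and Mmd2 were near Pcdh20, a protocadherin (7.62 and 4.37 TPM), and Mmd2 nearest to Gm47815 (8.47 and 4.69 TPM), while Nr4a1 was near Ren1, the renin gene (7.30 and 8.60 TPM).

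Tekt5 had other companions. Its 3 nearest genes were Cbr3, a carbonyl reductase (r = 0.961), Srxn1, sulfiredoxin (r = 0.956), and Abcc4, an export pump (r = 0.941), all known to be induced by the oxidative stress factor Nrf2. Cbr3 held 540, 491 and 2.35 TPM in WT tumours 1, 2 and 3 and 143 TPM in WT non-tumour 2, beside 1.17 to 6.63 TPM in the other 14 samples. Srxn1 likewise held 737, 619 and 51.6 TPM in the WT tumours and 444 TPM in WT non-tumour 2. These genes thus shared with Tekt5 the 2 high tumours and the same exceptional non-tumour sample. Over the 16 samples without the high tumours, r with Tekt5 was 0.852 for Cbr3, 0.911 for Srxn1 and 0.621 for Abcc4, which is a description that rests on WT non-tumour 2.

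Bhlha15 and Rtn4rl2 had companions that were also raised in GKO tumours. Il33, an alarmin cytokine, was among the first 3 for either gene, with 43.3, 32.1 and 2.36 TPM in the WT tumours and 10.7, 2.80 and 6.42 TPM in the GKO tumours, against at most 0.764 TPM in the livers without tumour. Slc26a6, an anion exchanger (5.37 and 4.57 TPM in WT tumours 1 and 2, at most 1.06 TPM elsewhere), was among the first 3 for Bhlha15. Ikbip (7.65 and 8.09 TPM) and Pfkp, a phosphofructokinase (4.75 and 5.70 TPM), led for Rtn4rl2, and their highest values outside the high tumours were 3.94 and 1.86 TPM, both in GKO tumour 2.

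As a group comparison, the WT tumours were above the WT non-tumours in the 10 genes by a median of 3.03 on the log2(TPM + 1) scale, beside a median of -0.02 over all genes. These differences ran from 1.91 for Mmd2 to 4.77 for Wnt10a, each carried by 2 of 3 tumours and with a replicate SD of between 1.40 and 2.94. Only Nr4a1, Tmprss7 and Bhlha15 had all 3 WT tumours above all 3 WT non-tumours, a pattern seen in 11% of the 14003 genes averaging 0.5 TPM or more. Against the WT tumours, the GKO tumours were lower by a median of 2.75 (a log2 difference of -2.75, beside 0.09 over all genes), but only Tekt5 had all 3 GKO tumours below all 3 WT tumours, as had 4.78% of the 13964 genes. The lower group means of the GKO tumours were thus set against WT tumours 1 and 2, while WT tumour 3 lay among or below the GKO tumours in 9 of the 10 genes. Against GKO non-tumours, the GKO tumours did not overlap and were above in Bhlha15, Rtn4rl2 and Tmc5, the last of which was too low to pass the filter, beside 25.7% of the 14092 genes.

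Livers without tumour were also compared with each other by limma. Their low levels were part of the choice of the 10 genes, so a gene much raised in a liver group would have been left out, and the lack of a call there is not independent of that choice. In GKO against WT non-tumours 4 genes were high enough to test, and none passed an adjusted p of 0.05 (0% of the 13768 genes tested did, and 799 had an unadjusted p under 0.05). Mmd2 came nearest, with 0.926 ± 0.544 TPM in GKO and 2.50 ± 1.20 TPM in WT non-tumours (SD, n = 3). Its log2 difference was -0.83 ± 0.34 SE (limma adjusted p = 0.643). In GKO against WT normal livers Mmd2 and Nr4a1 could be tested and neither passed (limma adjusted p = 0.999 for both), beside 0% of the 13099 genes, 519 of which had an unadjusted p under 0.05. For DEN without tumour, none of the 3 genes testable in WT livers passed (limma adjusted p from 0.295 to 0.421, beside 0.00744% of the 13440 genes called, with 3282 at an unadjusted p under 0.05), nor did any of the 3 testable in GKO livers (limma adjusted p = 1.00, beside 0% of the 13530 genes, 703 of which had an unadjusted p under 0.05). Voom on the recovered reads also called none of the 10 in these comparisons, and among genes past the filter only Mmd2, in the first of them, had an unadjusted p under 0.05 by limma. Wnt10a, Serpinb1c, Gucy2c, Tmprss7, Bhlha15 and Tmc5 fell under the filter in all 4 comparisons. Without the filter none of the 10 passed either, but Tmc5 had an unadjusted p under 0.05 in GKO against WT non-tumours and in WT non-tumours against WT normal livers (limma adjusted p = 0.729 and 0.232), as had Wnt10a in the latter (limma adjusted p = 0.288), while Mmd2 no longer had. Tmc5 rested on 6, 14 and 6 reads in WT non-tumours, 1, 0 and 0 in GKO non-tumours and none in the normal livers. WT non-tumours thus did not overlap with either group. Among genes past the filter, WT non-tumours lay wholly above WT normal livers in 4170 of 13440. GKO non-tumours lay wholly below WT non-tumours in 1283 of 13768. Wnt10a rested on 1, 0 and 0 reads in WT non-tumours and 2, 3 and 2 in WT normal livers, which are within the floor of 3 reads.

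Relatives, partners and pathway genes of the 10 were then followed in 12 lists with 155 genes, of which 72 were high enough to test in the WT tumours against WT non-tumours. There 2 rose and 9 fell with an adjusted p under 0.05 by limma, beside 2.16% of all genes tested that rose and 2.07% that fell. In the GKO tumours against GKO non-tumours 13 of 71 rose and 8 fell, beside 7.75% and 3.97% of all genes; with samples centred to the same median these last shares shift, as 777 genes rose and 990 fell in place of 1092 and 560. The counts of the lists rested on single samples: the 11 genes in WT tumours became 5 when WT tumour 1 or WT non-tumour 1 was left out, 6 when WT tumour 2 and 23 when WT tumour 3 was. The 21 in GKO tumours became 6 without GKO non-tumour 3, 11 without GKO non-tumour 2 and 12 without GKO tumour 3. No gene of the lists differed between GKO and WT tumours (0 of 71 by limma and by voom, 5 with an unadjusted p under 0.05 in either, beside 0.0215% of all genes called), nor did the tumour effect differ between genotypes for any of them (0 of 71, 10 with an unadjusted p under 0.05, 0 by voom, beside 0.0142% of all genes).

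Of 14 Wnt feedback and target genes 10 were tested, of which 6 fell in WT tumours, and in GKO tumours 5 fell and 1 rose. Glul, encoding glutamine synthetase of the cells around the central vein, held 50.0, 42.5 and 18.5 TPM in the WT tumours and 488, 159 and 715 TPM in the WT non-tumours (log2 difference -3.44 ± 0.62 SE, limma adjusted p = 0.0320), a call kept in 8 of 15 alternative settings. Notum, a secreted Wnt deacylase, held 3.92, 4.10 and 5.41 TPM against 25.2, 44.1 and 40.7 TPM (-2.75 ± 0.27, limma adjusted p = 0.00370), and Tbx3, a transcription factor, 1.13, 2.44 and 0.359 TPM against 13.8, 12.1 and 17.4 TPM (-2.83 ± 0.36, limma adjusted p = 0.00933). For these 3 genes WT tumours 1 and 2 were on the side of WT tumour 3, and no WT tumour overlapped the non-tumours. In GKO tumours Notum and Tbx3 fell too, by 2.98 and 2.85 on the log2 scale (limma adjusted p = 0.0221 and 0.0151, both kept in 10 of 14 settings). Ccnd1, encoding cyclin D1, was the gene that rose in GKO tumours, to 22.4, 11.8 and 25.9 TPM from 2.09, 1.11 and 1.19 TPM (log2 difference 3.05 ± 0.32, limma adjusted p = 0.00506); in WT non-tumour 2 it held 31.9 TPM, more than any tumour. Of the 18 other ligands only 3 were high enough to test, and Wnt5b fell in WT tumours (-1.43 ± 0.30, limma adjusted p = 0.0485), Wnt2 in GKO tumours (-1.12 ± 0.27, limma adjusted p = 0.0398). Most alternatives ended these calls, which were kept in 4 of 14 settings for Wnt5b (adjusted p up to 0.183 by limma) and in 6 of 13 for Wnt2 (up to 0.129). Of the receptors Fzd7 fell in WT tumours, to 2.22, 2.47 and 2.85 TPM from 8.73, 11.5 and 5.75 TPM (-1.42 ± 0.26, limma adjusted p = 0.0345, kept in 9 of 15 settings), and Lrp5 and Ryk, the most abundant, did not pass in any comparison.

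Some immediate early genes rose in tumours of either genotype. In WT tumours 1 of 16 tested passed and in GKO tumours 7 of 15, all of them higher, with list medians of 1.07 and 1.04 on the log2 scale beside -0.02 and 0.20 over all genes. Dusp5, a phosphatase of Erk, rose in both genotypes. WT tumours held 23.6, 20.04 and 25.5 TPM of it, GKO tumours 14.8, 35.5 and 16.8 TPM, and livers without tumour at most 2.03 TPM (3.41 ± 0.25 and 3.54 ± 0.35, limma adjusted p = 0.00149 and 0.00465). Egr1 rose in GKO tumours to 51.5, 122 and 123 TPM from 2.73, 2.7 and 0.609 TPM (5.04 ± 0.46, limma adjusted p = 0.00406) and held 63.5, 72.5 and 26.8 TPM in WT tumours. Atf3 also rose in GKO tumours (3.02 ± 0.33, limma adjusted p = 0.00506), in all 14 settings. The rise of Fos there was less firm (2.05 ± 0.49, limma adjusted p = 0.0392), with the call kept in 4 of 13 settings and an adjusted p of up to 0.141. Junb and Ier2, the most abundant of the list, rose there too (1.55 ± 0.35 and 0.98 ± 0.25, limma adjusted p = 0.0351 and 0.0453), with the calls kept in 7 and 5 of 14 settings, and held 203, 234 and 85.5 TPM and 189, 177 and 84.9 TPM in the WT tumours, where they did not pass. For both, as for Nr4a1, WT tumours 1 and 2 lay above WT tumour 3.

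Of 8 partners and targets of Mist1 tested, 1 rose in WT tumours and 2 in GKO tumours, and none fell. Rab3d, a small GTPase of secretory vesicles and a known target of Mist1, rose to 39.9, 45.5 and 28.2 TPM in WT tumours from 4.29, 4.35 and 7.18 TPM (2.64 ± 0.28, limma adjusted p = 0.00503), and to 25.1, 18.9 and 22.04 TPM in GKO tumours from 6.36, 2.10 and 3.40 TPM (2.30 ± 0.33, limma adjusted p = 0.00979). Xbp1, a factor of the unfolded protein response, rose in GKO tumours (1.23 ± 0.30, limma adjusted p = 0.0408, kept in 8 of 14 settings), and held 174, 142 and 132 TPM in WT tumours. Hspa5, the chaperone BiP of the endoplasmic reticulum, did not pass, but it divided the tumours: it held 1030, 885 and 215 TPM in the WT tumours and 872, 762 and 164 TPM in the GKO tumours, against 79.0 to 322 TPM in the livers without tumour. High Hspa5 was therefore seen in 4 tumours, WT tumours 1 and 2 and GKO tumours 1 and 2, of which GKO tumour 2 had little Bhlha15 (0.805 TPM). Gjb1, the gap junction protein of hepatocytes, was high in all samples (535 to 1263 TPM).

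**Figure D4:**
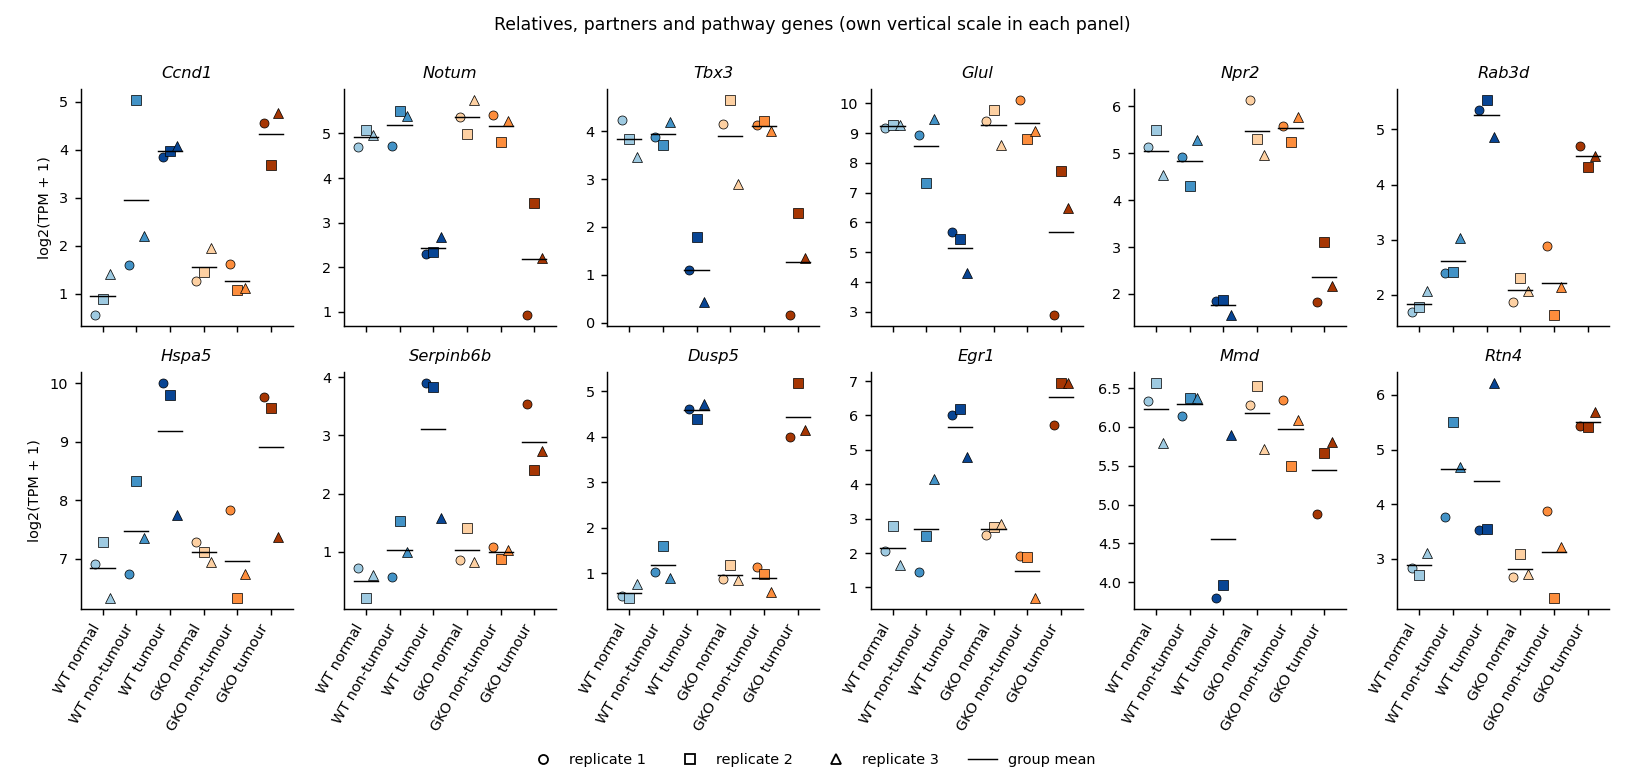
Levels of 12 relatives, partners and pathway genes in log2(TPM + 1), each panel on its own vertical scale, in the 6 groups of 3 samples, with one point per sample, shaped by replicate number, and a line at the group mean. Notum, Tbx3 and Npr2 are lower and Rab3d and Dusp5 higher in all 6 tumours than in any of the 12 livers, while WT tumours 1 and 2 stand apart from the other tumours with low Mmd and Rtn4.

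In the smaller families the following passed. Npr2, the receptor cyclase for C-type natriuretic peptide, fell to 2.62, 2.63 and 1.92 TPM in WT tumours from 29.4, 18.8 and 38.0 TPM (-3.09 ± 0.29, limma adjusted p = 0.00294), and in GKO tumours by 3.16 on the log2 scale (limma adjusted p = 0.00518). Serpinb6b rose in GKO tumours, to 10.6, 4.32 and 5.66 TPM from 1.13, 0.846 and 1.04 TPM (1.89 ± 0.30, limma adjusted p = 0.0127), and Serpinb1a fell there (-1.84 ± 0.44, limma adjusted p = 0.0390, kept in 7 of 13 settings). Paqr4 rose in GKO tumours (1.43 ± 0.20, limma adjusted p = 0.00890), as did Rtn4 (2.39 ± 0.39, limma adjusted p = 0.0136). No tektin was high enough to test, and no gene of the TMC family or of the membrane-bound serine proteases passed. Mmd and Rtn4, which set WT tumours 1 and 2 apart, did not pass in WT tumours, where their 3 values were far from each other.

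Markers of cell types in which some of the 10 genes are known were examined beside them. Of 12 pancreatic acinar markers, Cpa1, Cpb1, Pnlip, Ctrb1, Cel, Rbpjl and Ptf1a had no read in WT tumours 1 and 2, and the sum of the list (50.5 and 49.7 TPM there, 94.0 TPM in WT tumour 3, 6.29 to 60.8 TPM elsewhere) was nearly all Cela1 (47.9 and 48.3 TPM), which livers also express. Of 10 intestinal markers, Cdx1 and Sis had no read, Cdx2 at most 0.108 TPM and the list's sum, mostly Fabp2, was 208 and 222 TPM in WT tumours 1 and 2 and 168 to 585 TPM elsewhere, but Cdh17 (2.43 and 5.12 TPM) and Krt20 (4.83 and 9.03 TPM) were detected. Of 10 plasma cell markers, Tnfrsf17 had no read and Jchain and Mzb1 held at most 1.02 TPM in WT tumours 1 and 2, while the list's sum was 500 and 450 TPM there against 141 to 346 TPM elsewhere, through Derl3, a gene of endoplasmic reticulum protein degradation, at 206, 151 and 35.3 TPM in the WT tumours and at most 21.8 TPM elsewhere. Of 8 neuronal markers, Chga, Nefl and Elavl4 had no read and the sum was 1.85 and 3.54 TPM in WT tumours 1 and 2 and 1.04 to 5.53 TPM elsewhere, although Snap25 (1.69 and 2.64 TPM) was at most 0.018 TPM in the other 16 samples. The sums of 8 multiciliated markers (0.883 and 1.97 TPM) and of 8 testis germ cell markers (0.367 and 0.618 TPM) were low, with 2 and 6 markers at 0 in both high tumours. Sums of cholangiocyte, macrophage, T cell, endothelial and stellate cell markers in WT tumours 1 and 2 lay within the range of the other 16 samples, except for T cells in WT tumour 2 (16.3 TPM against 2.7 to 14.4 TPM). The part of any other cell type in the levels of the 10 genes was not tested beyond these values.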

How the data were processed

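RNA-seq was carried out by the authors on 18 mouse liver samples in 6 groups of 3, and gene levels were deposited as TPM in a single table of 54838 genes. Per the labels and the submitters' processing notes, reads were aligned to mm10 with STAR 2.7.3a and counted with featureCounts 2.0.0 (Subread). The strand setting, the annotation and the treatment of shared reads are not given in the sources used here. Whole reads were recovered by multiplying TPM by the exonic length of each gene in GENCODE M21 (54809 genes matched) and dividing by the value of 1 read in that sample. Of low values, up to 30 reads, 97.95% to 98.67% were whole within 0.02, and the depth was 11925055 to 20751355 reads. Intervals and the floor of 3 reads cover counting error only. There were 101 duplicated symbols.

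Groups were compared with limma 3.58.1 (R 4.3.3) on log2(TPM + 1), with a trended variance prior, over genes averaging 0.5 TPM or more across the fitted samples, and p-values were adjusted over all genes tested by the Benjamini-Hochberg method. Differences are on the log2(TPM + 1) scale and understate changes of low genes. Tests measure the spread between these samples, which may be technical. The 10 genes were not tested in comparisons with tumours, because they were chosen on them. The 10 genes, the lists of related genes and the markers were chosen with earlier results of these data known. Genes named from a list were those with an adjusted p under 0.05 in a comparison with tumours (the 4 with the largest change where there were more) and the 2 with the highest mean TPM. The 3 most similar genes and the nearest protein-coding gene on each side were named for each of the 10 (1 similar gene is not reported here), and other genes were named after their values were seen. Scripts ran in Python 3.11.15 (matplotlib 3.10.9, scipy 1.17.1, pandas 2.3.3, numpy 2.4.6), and the limma fit was tested on simulated data. Alternatives were a pseudocount of 0.1, no filter or a filter at 5 TPM, median centring, all samples in 1 fit, no trend in the prior, a replicate block, voom on recovered reads, WT tumours 1 and 2 averaged, and each sample left out.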

Additional observations from a re-analysis of the deposited data

Results flagged for a closer look

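The tumour effect and the effect of DEN in livers without tumour were looked at in 35 named genes. Only Atf3, a stress-induced transcription factor, was flagged, for going opposite ways in the genotypes in livers without tumour. The log2 difference of non-tumours against normal livers was 1.54 in WT mice, with 1.64, 45.2 and 1.44 TPM in the non-tumours against 1.44, 1.15 and 1.29 TPM in the normal livers. In GKO mice it was -0.49, with 1.42, 1.13 and 1.04 TPM against 1.87, 1.84 and 2.56 TPM. Every WT non-tumour was thus at or above every WT normal liver, and every GKO non-tumour below every GKO normal liver, but the difference between genotypes was not tested. Over all genes averaging 0.5 TPM or more, WT non-tumours lay wholly above WT normal livers in 4170 of 13440. GKO non-tumours lay wholly below GKO normal livers in 217 of 13530. The WT value is set by WT non-tumour 2, the sample with raised Tekt5, Cbr3 and Srxn1.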

How the results depend on the processing

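No called result changed direction under the alternatives run. Untested log2 differences near 0 in GKO tumours against GKO non-tumours did change sign with a sample left out for Mmd2 (-0.63 to 0.16), Nr4a1 (-0.15 to 0.44) and Wnt10a (-0.08 to 0.05), and with median centring for Nr4a1 (to -0.01) and Gucy2c (to -0.03). The 11 related genes called in WT tumours against WT non-tumours became 26 with all 18 samples in 1 fit, 7 with a mean of at least 5 TPM, 6 without a filter and 6 with WT tumours 1 and 2 averaged, and 5 to 23 when each sample was left out (5 without WT tumour 1 or WT non-tumour 1, 6 without WT tumour 2, 23 without WT tumour 3). The 21 in GKO tumours against GKO non-tumours became 12 with a mean of at least 5 TPM and 12 without a filter, and 6 to 20 with each sample left out (6 without GKO non-tumour 3, 11 without GKO non-tumour 2, 12 without GKO tumour 3). The 0 in GKO tumours against WT tumours became 0 to 2, with 2 (Dusp4 and Rtn4) without WT tumour 3. The 31 genes switched on in WT tumours became 12 at 10 TPM, and 23 to 27 with a WT tumour left out. The cause of these changes was not tested, beyond the smaller number of genes or samples that some alternatives have by construction. The counts of the 10 genes called in livers stayed at 0 in all 56 alternatives, and 109 of 446 values of named related genes lost the call. Over all genes, leaving out 1 sample gave 163 to 1363 calls in WT tumours against WT non-tumours (302 higher and 290 lower with all), 229 to 1567 in GKO tumours against GKO non-tumours (1092 and 560) and 0 to 147 in GKO tumours against WT tumours (3). Median centring moved the median of all genes in GKO tumours against GKO non-tumours from 0.20 to -0.04, and in WT non-tumours against WT normal livers from 0.32 to -0.05. Whether the replicate numbers pair the samples was not clear. Correlations of same-numbered samples ranged from -0.30 to 0.25, and in no comparison were all 3 over 0.1. Only in GKO tumours against GKO non-tumours did each tumour correlate best with its own number (0.12, 0.069 and 0.041, against at most 0.019). With the replicate block, 9 related genes were called in WT tumours against WT non-tumours. In GKO tumours 0 were called against WT tumours and 19 against GKO non-tumours.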

Other observations

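Besides the 4 of the 10 genes, 8 genes reached 5 TPM in WT tumours 1 and 2 and stayed under 1 TPM in every sample of the other groups, and they were named after their values were seen. Among the protein-coding ones, Cyp21a1, the steroid 21-hydroxylase, held 10.6 and 20.9 TPM, Krt5, a keratin of basal epithelia, 7.21 and 12.4 TPM, and Ren1, encoding renin, 7.30 and 8.60 TPM. WT tumour 3 held 0.159, 1.81 and 0.137 TPM of these. The other 5 were the noncoding genes or pseudogenes E330017L17Rik, Gm4668, Gm4714, Gm48727 and Lipo5.

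WT tumour 3 had genes of its own. Gtsf1l reached 10.5 TPM there and at most 0.148 TPM in the other 17 samples, and Cyp11a1, the cholesterol side-chain cleavage enzyme, held 5.54 TPM against 1.64 and 1.47 TPM in WT tumours 1 and 2 and at most 0.0531 TPM elsewhere. Gm36325, a noncoding gene, was the only one at 5 TPM or more in all 3 WT tumours (8.18, 9.24 and 13.7 TPM), with at most 0.465 TPM in the other 15 samples.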
